A study of Mus musculus with 6 samples.

Results

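The genes described here are those of the FGF21 axis in mouse liver, with the hormone *Fgf21*, the second ligand *Fgf1*, the co-receptor *Klb*, the receptors *Fgfr1*, *Fgfr2*, *Fgfr3* and *Fgfr4*, and the feedback inhibitors *Spry2* and *Spry4*. They were chosen by gene symbol, and all 9 were found among the 24421 genes of the deposited table. Liver mRNA was profiled by RNA sequencing (RNA-seq) in 6 C57BL/6 mice at 21 weeks of age, 3 wild-type (WT) mice and 3 mice heterozygous for a null allele of *Pai-1* (*Pai-1*+/-). All were fed standard chow without restriction, and the heterozygotes came from a cross of *Pai-1*-/- and WT mice. The labels give the WT animals as male, and the study describes the mice of both genotypes in this comparison as male. Strain and age are those of the labels. The study names the substrain C57BL/6J, gives a slightly younger age and describes the WT mice as littermates. The study asked how a lower dose of PAI-1, the main rapid inhibitor of the plasminogen activators, bears on hepatic gene expression.

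The genotypes were not compared here. The 6 columns of the deposited count table carry animal numbers that match none of the sample labels, so no column was assigned to a mouse or a genotype, and the columns of the authors' own comparison were not used. The level of each gene is therefore the authors' mean normalized count, which is the average over the 6 libraries of counts divided by a size factor for depth. It has no SD, it joins both genotypes, and it does not show how a gene's reads were divided among the mice. In whole liver, a gene expressed in fewer cells and a gene with less mRNA per cell cannot be told apart by such a mean.

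Fibroblast growth factors signal by joining pairs of receptor tyrosine kinases, which activate the ERK cascade through adaptor proteins. The endocrine members of the family bind their receptors weakly and need a Klotho protein as a co-receptor. FGF21 is a hormone made mainly by hepatocytes, well known for its induction in fasting and in amino acid shortage, and beta-Klotho, encoded by *Klb*, lets it act on its receptors. In the liver, beta-Klotho and FGFR4 also receive FGF15 from the ileum, which restrains bile acid synthesis. Sprouty proteins are made in response to receptor signalling and dampen it.

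The promoters of *Fgf21*, *Klb* and *Fgfr4* are shown because they drive the hepatic hormone, its co-receptor and the signalling receptor with the highest level in these livers. Each sequence runs from 250 bases before the start site to 50 bases after it, 5′ to 3′ on the strand of the gene, and was taken from RefSeq on GRCm38.p6. Capitals mark matches on either strand to any of 5 motifs. These are the C/EBP-ATF element TGATGCAAT, which ATF4 is known to bind, the E-box CACGTG, the TATA motif TATAAA, the GC box GGGCGG, and the nuclear receptor half-site AGGTCA.
Fgf21, chr7:45615441-45615740, minus strand: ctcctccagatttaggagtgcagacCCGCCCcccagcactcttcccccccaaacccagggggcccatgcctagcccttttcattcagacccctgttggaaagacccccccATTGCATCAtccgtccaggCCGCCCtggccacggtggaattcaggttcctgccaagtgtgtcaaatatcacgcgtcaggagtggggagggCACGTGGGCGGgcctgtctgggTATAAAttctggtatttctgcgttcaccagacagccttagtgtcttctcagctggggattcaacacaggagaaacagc
Klb, chr5:65348161-65348460, plus strand: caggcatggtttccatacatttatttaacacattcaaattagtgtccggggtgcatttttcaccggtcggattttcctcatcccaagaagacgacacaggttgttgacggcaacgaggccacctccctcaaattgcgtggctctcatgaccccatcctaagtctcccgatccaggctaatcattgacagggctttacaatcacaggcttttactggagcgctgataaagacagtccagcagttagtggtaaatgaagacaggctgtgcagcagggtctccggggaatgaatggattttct
Fgfr4, chr13:55152568-55152867, plus strand: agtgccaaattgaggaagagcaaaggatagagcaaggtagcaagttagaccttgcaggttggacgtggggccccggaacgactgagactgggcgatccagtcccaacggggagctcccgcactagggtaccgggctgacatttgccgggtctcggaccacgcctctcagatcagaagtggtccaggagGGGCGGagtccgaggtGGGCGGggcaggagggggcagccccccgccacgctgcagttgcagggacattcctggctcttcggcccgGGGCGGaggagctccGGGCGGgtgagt

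The *Fgf21* promoter held 4 of the 5 motifs. Its C/EBP-ATF element lay on the opposite strand, 140 to 132 bases before the start site, and 0.192% of the 32851 RefSeq promoters of this length held that motif. An E-box lay 50 to 45 bases before the start site, a motif held by 7.15% of promoters, and its last base was shared with the first base of a GC box. A TATA motif lay 28 to 23 bases before the start site, against 13.6% of promoters with the motif anywhere on either strand. The *Fgf21* promoter held 3 GC boxes and that of *Fgfr4* held 4, with the motif in 35.7% of all promoters. The *Klb* promoter held none of the 5 motifs. A GC content of 48.3% was found in the *Klb* promoter, 58.0% in that of *Fgf21* and 65.3% in that of *Fgfr4*, with a median of 52.7% over all promoters. The half-site was in 16.3% of promoters. Among the 6 genes whose promoters were read (*Fgf21*, *Klb*, *Fgfr2*, *Fgfr3*, *Fgfr4* and *Spry2*), it was found in that of *Spry2* alone. The promoters of *Fgf1* and *Spry4*, on chromosome 18, were left out of this reading, and none was read for *Fgfr1*. The matches are a description of these letters and do not show that a factor was bound.

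The mean normalized counts of all genes summed to 30045982, of which the 9 genes took 0.0317%. Of the 24421 genes, 6743 were listed at 0 and 12971 had a mean above 10, and all 9 genes were among the latter. The hepatocyte markers *Alb*, *Apoa1*, *Ttr*, *Serpina1a* and *Cyp2e1* had means from 37617 to 2155546 and made up 9.61% of the total. All 5 markers of each of liver endothelial cells, stellate cells, cholangiocytes and Kupffer cells had a mean above 10, and 3 of 4 adipocyte markers did not. Of 5 markers of pancreas acinar cells, 3 had a mean above 10, with *Cela1* highest at 242.2, and 2 were listed at 0. Among 5 red cell markers, 3 globin genes were listed at 0 while *Alas2* had a mean of 2136, so a value of exactly 0 may not mean that no transcript was present.

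Of the ligands, *Fgf1* had the highest level of the 9 genes and *Fgf21* a much lower count. *Fgf1* encodes a growth factor that can bind every FGF receptor and is released without a signal peptide. Its mean normalized count was 3933, higher than that of 95.7% of all genes and 1056th from the top. For *Fgf21* the mean normalized count was 220.9, higher than that of 66.0% of all genes and 8296th from the top. Without regard to length the ratio of *Fgf1* to *Fgf21* was 17.8.

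A long transcript gives more reads than a short one at the same number of molecules, so levels were also divided by the length of the union of annotated exons in kilobases (kb). *Fgf21* is a compact gene of 3 exons, with 0.951 kb of exon, whereas the union for *Fgf1* was 5.46 kb over 11 annotated transcripts. The mean normalized count per kb was 719.9 for *Fgf1* and 232.3 for *Fgf21*, a ratio of 3.10. On this scale *Fgf21* stood above 84.2% of the 23334 genes with a length, those at 0 included, against 66.0% of genes by count alone. The 84.2% was taken with the union of exons only, and the standing of *Fgf21* depended on the length. Among the 9 genes it was in place 4 with the union and place 5 with the longest transcript. It was in place 7 with the mean transcript and place 8 with no length. The gap between the ligands depended on the length used, since the ratio was 4.25 with the longest transcript and 11.9 with the mean transcript of *Fgf1*.

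**Figure D1:**
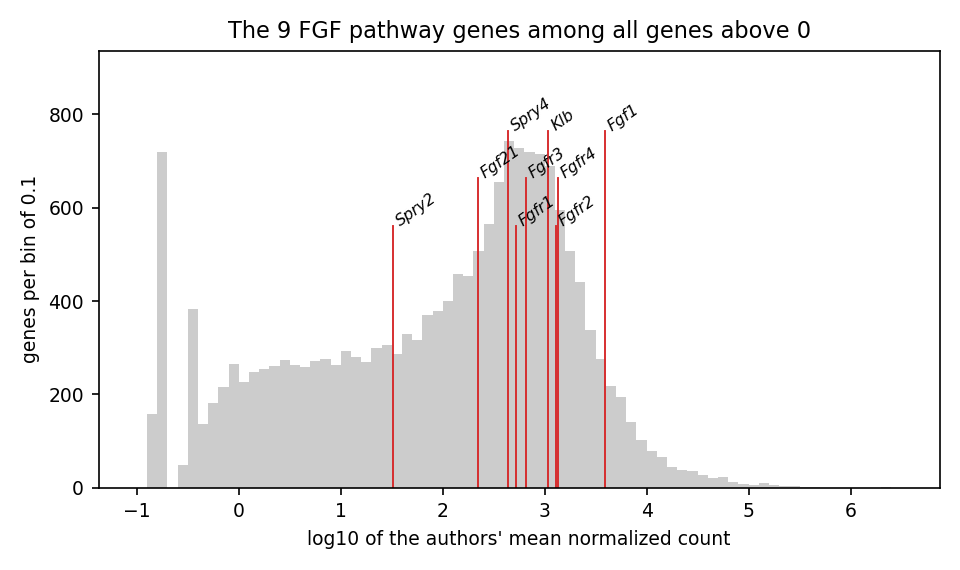
Histogram of the log10 of the authors' mean normalized count for the 17678 genes above 0, in bins of 0.1, with a red line at each of the 9 genes. *Spry2* (32.4) lies far below the others, *Fgf1* (3933) lies highest, and the remaining 7 genes lie between 220.9 and 1348.

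The 14 other FGF genes that were looked up, ligands and intracellular relatives, were scarcely read in these livers. Of these 14 genes, 12 had a mean normalized count of 10 or less and 5 of those were listed at 0, with a median of 0.50. *Fgf15*, the ileal hormone that acts on hepatocytes, was listed at 0, as was *Fgf23*, the phosphate-regulating hormone of bone. The highest of the 14 were *Fgf12* (11.3) and *Fgf11* (10.7), intracellular relatives that are not secreted as hormones. The mean normalized counts of these 14 genes summed to 30.04, below the 220.9 of *Fgf21* alone.

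The co-receptor *Klb* had a mean normalized count of 1088, higher than that of 85.1% of genes, and 239.1 per kb of exon. With the union of exons its level per kb was close to that of *Fgf21* at 232.3, while with the longest or the mean transcript it was 307.2 or 444.9 and that of *Fgf21* was the same. Whether these neighbours differ beyond the spread between mice was not tested. *Kl*, the Klotho protein that serves FGF23 in the kidney, had a mean normalized count of 0.83. Nearly all normalized counts of the 2 Klotho genes were thus from *Klb*.

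All 4 signalling receptors were read, and *Fgfr4* led on each scale. The mean normalized counts were 1348 for *Fgfr4*, 1288 for *Fgfr2*, 651.4 for *Fgfr3* and 528.7 for *Fgfr1*. By count alone *Fgfr4* exceeded *Fgfr2* by a ratio of only 1.05. Per kb of exon the levels were 380.7 for *Fgfr4*, 124.7 for *Fgfr2*, 91.0 for *Fgfr3* and 53.5 for *Fgfr1*, so the lead of *Fgfr4* over *Fgfr2* was 3.05 and that over *Fgfr1* was 7.11. With the longest and the mean transcript the lead over *Fgfr2* was 1.395 and 1.551, and that over *Fgfr1* was 3.868 and 3.965. *Fgfr4* is the receptor best known in hepatocytes, and *Fgfr1* is the receptor through which FGF21 acts on adipose tissue.

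*Fgfr4* took 58.6% of the summed level per kb of the 4 receptors, *Fgfr2* 19.2%, *Fgfr3* 14.0% and *Fgfr1* 8.24%. The union of exons weighs against *Fgfr1*, *Fgfr2* and *Fgfr3*, which have 19, 27 and 17 annotated transcripts, whereas *Fgfr4* has 3. With the length of the longest transcript the share of *Fgfr4* was 42.5% and that of *Fgfr2* 30.5%, and with the mean transcript they were 45.1% and 29.1%. *Fgfr1* had the smallest share of the 4 receptors on each scale, between 8.24% and 13.9%. The decoy receptor *Fgfrl1*, which binds ligands and lacks the kinase domain, had a mean normalized count of 1214 and 436.3 per kb, above *Fgfr4* per kb of exon.

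**Figure D2:**
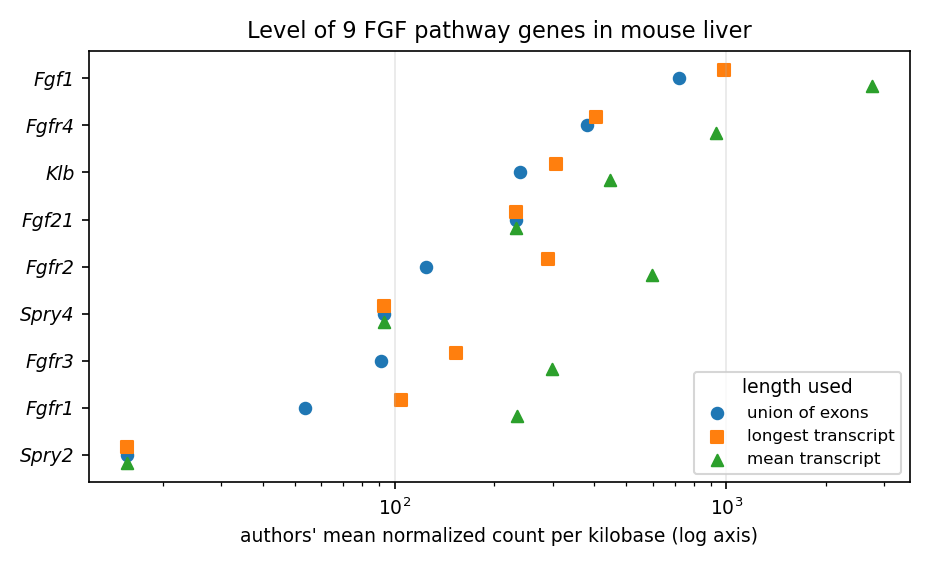
Authors' mean normalized count per kilobase on a log axis for the 9 genes, with the length taken as the union of exons (circles), the longest transcript (squares) or the mean transcript (triangles). *Fgf1* and *Fgfr4* stay highest and *Spry2* stays lowest (15.5 per kb), while genes with many annotated transcripts shift to the right of their circles and the single-transcript genes *Fgf21*, *Spry2* and *Spry4* do not move.

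The 2 Sprouty genes differed widely in level. *Spry4* had a mean normalized count of 441.5 and *Spry2* one of 32.4, a ratio of 13.6. Per kb of exon the levels were 92.9 for *Spry4* and 15.5 for *Spry2*, a ratio of 5.97. Each has a single annotated transcript, so this ratio was the same for every length used. *Spry1*, another member of the family, lay between them with a mean normalized count of 167.7 and 57.7 per kb, and *Spry3* was listed at 0.

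Ordered by level per kb of exon, the genes ran from *Fgf1* through *Fgfr4*, *Klb*, *Fgf21*, *Fgfr2*, *Spry4*, *Fgfr3* and *Fgfr1* to *Spry2*. The median of the 12499 genes with a length and a mean above 10 was 94.6 per kb, and 5 of the 9 genes lay above it. By count alone the median of the 12971 genes with a mean above 10 was 440.4. All of the 9 genes but *Fgf21* (220.9) and *Spry2* (32.4) lay above that median, *Spry4* barely at 441.5. *Spry4* (92.9) and *Fgfr3* (91.0) were as close to each other as *Klb* and *Fgf21*, and the order of *Spry4* and *Fgfr3* changed with the length used. *Fgf21* lay above *Fgfr2* with the union of exons only. With the longest transcript *Fgfr2* had 290.9 per kb and *Fgf21* 232.3. *Fgfr2* was also above both *Fgf21* and *Klb* with the mean transcript and with no length.

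The genes that carry the receptor signal were all read. All 8 adaptors and signal carriers had a mean normalized count above 10, with a median of 1212. *Frs2*, the docking protein that couples FGF receptors to ERK, had a mean normalized count of 689.7 and its relative *Frs3* one of 68.6. Among 11 other feedback genes and transcription factors of the pathway, 8 had a mean above 10 and the median was 76.6. *Dusp6*, a phosphatase that inactivates ERK, had a mean normalized count of 2895 and *Egr1*, an immediate early gene, one of 9245. Both are also induced by other growth factor receptors. The transcription factors *Etv4* and *Etv5*, which often follow FGF signalling in other tissues, had mean normalized counts of 4.96 and 76.6.

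All 10 genes for factors known to act on *Fgf21* transcription had a mean above 10, with a median of 2485. *Creb3l3*, which encodes the hepatic factor CREBH, and *Ppara*, the fatty acid receptor of fasting, had the highest mean normalized counts at 10983 and 9756. *Mlxipl*, which encodes the glucose sensor ChREBP, followed with 5679. *Atf4*, which encodes a factor known to bind the C/EBP-ATF element shown above, had a mean normalized count of 2494, and *Ddit3*, itself a target of ATF4, had 185.5. These are mRNA levels averaged over both genotypes, and the activity of the factors was not measured.

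**Figure D3:**
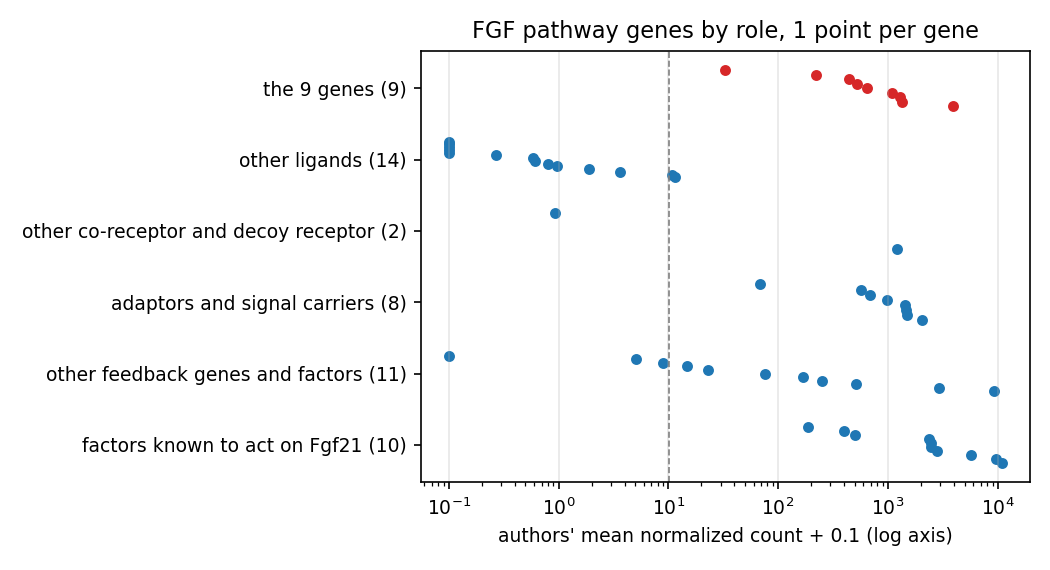
Authors' mean normalized count plus 0.1 on a log axis, with 1 point for each gene, for the 9 genes (red) and for 5 other groups of the pathway (blue), and with the number of genes in brackets. The dashed line marks a mean of 10. Of the 14 other FGF genes, labelled other ligands though some are intracellular relatives, 12 lie to its left. All 8 adaptors and all 10 factors known to act on *Fgf21* lie to its right.

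The genes were placed on GRCm38, the assembly also named mm10, with GENCODE M21, and each symbol matched 1 gene. *Fgf21* (ENSMUSG00000030827.5) lies on the minus strand of chromosome 7 from 45613886 to 45615490. *Klb* (ENSMUSG00000029195.10) lies on the plus strand of chromosome 5 from 65348314 to 65384007. *Fgfr4* (ENSMUSG00000005320.9) lies on the plus strand of chromosome 13 from 55152640 to 55168759. The starts of *Klb* and *Fgfr4* in GENCODE fall inside the promoter windows shown above, before the RefSeq start sites used there. The 4 GC boxes of the *Fgfr4* promoter thus lie within the gene as placed by GENCODE. *Fgfr3* (ENSMUSG00000054252.18) lies on the plus strand of chromosome 5 from 33721674 to 33737068. *Fgfr1* (ENSMUSG00000031565.18) lies on the plus strand of chromosome 8 from 25513654 to 25575718. *Spry2* (ENSMUSG00000022114.5) lies on the minus strand of chromosome 14 from 105891947 to 105896819. *Fgf1* (ENSMUSG00000036585.16) and *Spry4* (ENSMUSG00000024427.7) both lie on the minus strand of chromosome 18, from 38838673 to 38929472 and from 38586247 to 38601415.

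*Fgfr2* (ENSMUSG00000030849.18) lies on the minus strand of chromosome 7 from 130162451 to 133123350 in GENCODE, a span of 2961 kb, against 104.4 kb in RefSeq. It shares 314 exonic bases with *Ctbp2* on the same strand, 3.04% of its exons, and *Ctbp2* had a mean normalized count of 54.8. *Fgfr3* shares 998 exonic bases, 13.9% of its exons, with *G630022F23Rik* on the opposite strand, which has no row in the deposited table. *Fgfr1* shares 164 exonic bases with *Gm16159* on the opposite strand, which was listed at 0. Whether reads were counted by strand is not given in the sources used here, so the level of *Fgfr3* carries this uncertainty. The overlap of *Fgfr2* with *Ctbp2* is on the same strand, where counting by strand would not separate the reads. Exons from the wider GENCODE span also enter the union of exons by which *Fgfr2* was divided. How far these points moved the level of *Fgfr2* was not tested. The other 6 genes share no exonic bases with another annotated gene.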

How the data were processed

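Hepatic mRNA libraries of 3 WT and 3 *Pai-1*+/- mice were sequenced as single-end reads. According to the study's methods and processing notes, reads were aligned to mm10 with STAR and compared with DESeq2 inside the BaseSpace application RNA Express, and HOMER is listed without a role. Tool versions, gene annotation and strand setting are not given in the sources used here. The signal used is the mean normalized count of the authors' deposited table, in which each count was scaled by its library's size factor and the 6 libraries were averaged. It carries no counts per library, so depth per sample, intervals and detection limits are not given, and the sum of the means is the measure of depth used here. The same table holds the authors' log2 fold changes, standard errors, Wald statistics, p-values, adjusted p-values and a status, none of which was used. A table of counts per animal was also deposited. Its 6 columns were not used, because their numbers match no label and it was not established which sample each holds. The planned edgeR test between genotypes was therefore not run.

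Levels were divided by the union of exons from GENCODE M21 on GRCm38, for the 95.5% of symbols that matched 1 gene. The annotation over which the reads were counted is not given, so counts and lengths may rest on different gene models. Alternatives were the longest transcript, the mean transcript, which includes short fragments, and no length. The 9 genes and the pathway and marker lists were chosen with earlier results of these data known. All 9 genes were named, and other genes only from those lists. The result of 1 gene is not reported here. Promoters came from RefSeq, and motifs were sought on both strands. The promoters of *Fgf1* and *Spry4*, on chromosome 18, were left out. The length and motif functions were tested on simulated data. Python 3.11.15, pandas 2.3.3, NumPy 2.4.6 and Matplotlib 3.10.9 were used.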

Additional observations from a re-analysis of the deposited data

How the results depend on the processing

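The levels per kb depend on the length by which the count is divided. With the longest transcript in place of the union of exons, the mean normalized count per kb was 987.4 for *Fgf1*, 405.7 for *Fgfr4*, 307.2 for *Klb*, 290.9 for *Fgfr2*, 153.5 for *Fgfr3* and 104.9 for *Fgfr1*. With the mean transcript it was 2762, 929.5, 444.9, 599.5, 297.8 and 234.5 for the same genes. *Fgf21*, *Spry2* and *Spry4*, with 1 transcript each, had the same value in every setting. The share of *Fgfr4* in the receptor sum was 42.5% with the longest and 45.1% with the mean transcript. Of the 36 pairs of the 9 genes, 33 kept their order with the longest transcript, 30 with the mean transcript and 29 with no scaling by length. *Fgf1* and *Fgfr4* were first and second and *Spry2* last in all 4 settings. No paired analysis was possible because the columns of the count table carry no replicate number and no comparison of the genotypes was made. For the same reason the planned edgeR and DESeq2 fits, their filters and normalizations, totals without size factors and fits that leave out a mouse were not run. The mean over all libraries carries no error, and no difference between genes was tested against the spread between mice, because the columns per animal were not used.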
